A study of Mus musculus with 2 samples.

Results

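The genes described here are the 37 genes of the mouse mitochondrial chromosome, which encode 13 mRNAs, 2 rRNAs and 22 tRNAs. They were taken as every gene annotated on chromosome M, out of 43346 Ensembl genes in the deposited tables. Expression was measured by total RNA sequencing in the midbrain of 2 mouse embryos of the B6NCrl strain at embryonic day 14.5. No allele or treatment is given, and the libraries, called embryo 1 and embryo 2, are biological replicates of a single group. Each came from a single pup, and the pups were collected on different days, so day and embryo cannot be told apart. The labels nevertheless give the sex as pooled male and female. RNA over 200 nt long was isolated by mirVana, libraries were made from 10 ng with ERCC spike-in RNAs, and the protocol document is named for SmartSeq. None of the sources used here states the strand protocol.

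The total count was 32716141 reads in embryo 1 and 30185472 in embryo 2, with 3.15% and 3.32% in spike-ins. All 6 midbrain markers (Otx2, En1, En2, Pax7, Lmx1a, Th) were detected, with summed TPM (the deposited level per unit of transcript length, on a scale where the rows of a library add up to a fixed total) of 150 in embryo 1 and 133 in embryo 2. All 5 neuronal markers were detected as well, with summed TPM of 3277 and 3431, as were all 5 progenitor markers (Sox2, Nes, Vim, Fabp7, Pax6), with 1768 and 1903. Most of the midbrain sum was Otx2, at 99.9 and 76.3 TPM, while Th (20.88 and 26.75) and En1 (13.5 and 14.3) were higher in embryo 2. Most of the progenitor sum was Fabp7, at 1214 and 1511 TPM. Sox2 was also higher in embryo 2 (11.9 and 15.7), while Vim (502 and 346), Nes (22.1 and 14.3) and Pax6 (18.4 and 16.1) were lower. Summed levels of the non-neural marker lists were lower in embryo 2. The summed TPM in embryo 1 and embryo 2 was 400 and 9.19 for mesenchyme, 9953 and 6475 for erythroid cells, 98.7 and 35.5 for microglia, 122 and 78.9 for endothelium, and 104 and 6.18 for choroid plexus. None of these markers was at 0 in both embryos. Most of the choroid plexus sum in embryo 1 was Ttr, at 96.3 TPM there and 0.37 in embryo 2. Folr1 had 6.24 and 5.22, and only 1 of the 4 choroid plexus markers reached a TPM of 1 in both embryos.

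The mitochondrial chromosome is a small circle that is transcribed from both strands into long precursors. Most of its tRNAs lie between the rRNA and mRNA genes, and their excision releases the neighbouring rRNAs and mRNAs. The mRNAs encode core membrane subunits of respiratory complexes I, III and IV and of the ATP synthase, called complex V, while all other subunits are made from nuclear genes. Pieces of mitochondrial DNA have also been copied into nuclear chromosomes in the course of evolution, and reads from such copies and from the mitochondrial gene can be identical.

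The gene order sets what each read can tell. On GRCm38 (mm10), coordinates from GENCODE M21, the annotated genes run from mt-Tf at chrM:1-68 to mt-Tp at chrM:15356-15422. Both rRNAs and 12 of the 13 mRNAs are on the plus strand, and mt-Nd6 (chrM:13552-14070) and 8 tRNAs are on the minus strand. All 37 genes have a single transcript without introns, whose length equals the coordinate span. The reading frames of mt-Atp8 and mt-Atp6, which share a bicistronic mRNA, overlap by 43 bases, and those of mt-Nd4l and mt-Nd4, which share another, by 7 bases. These overlaps are shown because a read that lies across them holds bases of both frames. The counts of mt-Atp8 were nevertheless whole numbers, 14596 in embryo 1 and 16021 in embryo 2, with no sign of reads split with mt-Atp6. In both overlaps, capitals mark the first codon of the second frame and the last codon of the first frame, read from the GENCODE M21 transcripts.
mt-Atp8/mt-Atp6, chrM:7927-7969, plus strand: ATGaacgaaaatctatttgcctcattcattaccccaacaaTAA
mt-Nd4l/mt-Nd4, chrM:10167-10173, plus strand: ATGcTAA

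Several mRNAs and their copies on chromosome 1 differ, as annotated transcripts, almost only in where they end. The copies form a cluster of 7 annotated pseudogenes on the minus strand (chr1:24611535-24616197), and they are in the same order as the mitochondrial genes from mt-Co1 to mt-Nd4. Gm28437 is identical to mt-Co3 over all its 783 bases, and mt-Co3 is 1 base longer. Gm10925 is identical to mt-Atp6 over 678 bases and Gm28661 to mt-Co2 over 681 bases, each ending just before the stop codon. Gm10222 is identical to mt-Nd4l over 294 bases and Gm28439 to the first 876 bases of mt-Nd4. Gm28438 differs from mt-Nd3 at a single base over 345 bases, T3C, counted from 1 at the first base of mt-Nd3. Gm29216 matches the last 492 bases of mt-Co1 with 6 differences, all near its start, from T1056A to A1066T in mt-Co1 numbering. The sequences below are the last 30 bases of 3 mRNAs and the first 30 of the mt-Nd3 mRNA, each followed by its copy. Capitals mark mitochondrial bases past the end of the annotated copy or, for mt-Nd3, the base that differs. Chromosome 1 sequence past an annotated end was not read, so capitals there mark a limit of the annotation. Whether chromosome 1 holds the same bases there was not tested.
mt-Co3, chrM:9361-9390, plus strand: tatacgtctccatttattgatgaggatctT
Gm28437, chr1:24613189-24613217, minus strand: tatacgtctccatttattgatgaggatct
mt-Atp6, chrM:8578-8607, plus strand: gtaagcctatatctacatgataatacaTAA
Gm10925, chr1:24613974-24614000, minus strand: gtaagcctatatctacatgataataca
mt-Co2, chrM:7667-7696, plus strand: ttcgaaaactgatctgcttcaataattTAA
Gm28661, chr1:24614885-24614911, minus strand: ttcgaaaactgatctgcttcaataatt
mt-Nd3, chrM:9459-9488, plus strand: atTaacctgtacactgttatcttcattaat
Gm28438, chr1:24613090-24613119, minus strand: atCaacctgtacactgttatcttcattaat

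The tRNAs could not be measured. All 22 were listed at 0 in both embryos, but their genes are 59 to 75 bases long, and the tables give every gene under 100 bases an effective length of 0. For genes of a single transcript the effective length, the number of places where a read can start, was the annotated length less 99, as for reads of 100 bases. Of all 2218 Ensembl genes with an effective length of 0, none held a count in either embryo. RNA under 200 nt was also not retained, per the labels. The shortest and the longest tRNA gene, a serine and a leucine tRNA, are shown whole, without capitals, to give the scale against a read of that length.
mt-Ts2, chrM:11613-11671, plus strand: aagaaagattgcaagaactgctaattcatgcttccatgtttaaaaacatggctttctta
mt-Tl1, chrM:2676-2750, plus strand: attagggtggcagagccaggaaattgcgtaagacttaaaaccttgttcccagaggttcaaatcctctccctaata

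All 15 rRNAs and mRNAs reached a TPM of 1 or more in each embryo, as did 33.6% of all genes. Mitochondrial genes held 611366 reads in embryo 1 and 753539 in embryo 2, which is 1.93% and 2.58% of gene counts (2.26% ± 0.46, SD, n = 2). The 14 annotated nuclear genes of the tables that share a run of 50 bases with a mitochondrial gene held 243963 and 290353 more reads, and with them the share was 2.70% and 3.58% (3.14% ± 0.62). The copies therefore held 28.5% and 27.8% of the reads given to either. The rRNAs made up 29.8% and 33.0% of the reads of mitochondrial genes, and the mRNAs 70.2% and 67.0%. The median TPM of the 13 mRNAs was 1953 and 2301, against 18.2 and 16.3 for all genes detected in both embryos. In each embryo 11 mitochondrial genes were among the 100 highest TPM values.

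The rRNAs are the RNA scaffolds of the mitochondrial ribosome. The 16S rRNA mt-Rnr2 (chrM:1094-2675) had a TPM of 5239 in embryo 1 and 7033 in embryo 2 (6136 ± 1269). The 12S rRNA mt-Rnr1 (chrM:70-1024) had a TPM of 2044 and 3025 (2535 ± 694). The 16S rRNA was higher in both embryos, with a ratio of mt-Rnr2 to mt-Rnr1 in TPM of 2.56 and 2.32. Neither rRNA shares a 100-base window with an annotated nuclear transcript.

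Complex I, the NADH dehydrogenase, takes 7 mRNAs, and they spanned the widest range of any complex. Deposited TPM was 2840 and 3205 (3023 ± 258) for mt-Nd1 (chrM:2751-3707), which encodes a subunit at the junction of the membrane arm and the peripheral arm. The next level was that of mt-Nd4 (chrM:10167-11544), a proton-pumping membrane subunit, at 1953 and 2209 (2081 ± 181). Another pumping subunit, mt-Nd2 (chrM:3914-4951), had 925 and 1073 (999 ± 105). These 3 mRNAs kept this order in both embryos.

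The other complex I mRNAs were lower in deposited TPM. The antenna-like pumping subunit mt-Nd5 (chrM:11742-13565) had a TPM of 467 and 469 (468 ± 1.95). The minus-strand mRNA mt-Nd6, a small membrane subunit, had 484 and 522 (503 ± 26.2). Because strand is not given, reads from opposite-strand RNA at mt-Nd6 cannot be told apart from its mRNA. The order of mt-Nd5 and mt-Nd6 turns with the measure of length. In counts per kilobase of full length, scaled to the gene counts of each library, mt-Nd5 had 267 and 291 and mt-Nd6 had 237 and 277. The small subunits mt-Nd3 (chrM:9459-9806) and mt-Nd4l (chrM:9877-10173) had a deposited TPM of 241 and 460 (350 ± 155), and 119 and 83.6 (101 ± 25.3). With the reads of their nuclear copies added, as described below, both were above mt-Nd2 in each embryo.

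Complex III, the cytochrome bc1 complex, takes the single mRNA mt-Cytb (chrM:14145-15288), whose TPM was 4284 in embryo 1 and 4540 in embryo 2 (4412 ± 181). It was 8.84 and 8.71 times as high as mt-Nd6, its neighbour on the other strand, and 9.18 and 9.67 times as high as mt-Nd5, upstream of it on the same strand. These ratios rest on genes that share no 100-base window with an annotated nuclear transcript.

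Complex IV, cytochrome c oxidase, takes 3 mRNAs. The catalytic subunit mt-Co1 (chrM:5328-6872) had a TPM of 2921 and 4280 (3601 ± 960). The subunit that receives electrons from cytochrome c, mt-Co2 (chrM:7013-7696), had 1405 and 2301 (1853 ± 633). The third core subunit, mt-Co3 (chrM:8607-9390), had 2283 and 2416 (2350 ± 94.4). The order of mt-Co2 and mt-Co3 was the same in both embryos, but the difference of their means was smaller than the SD of mt-Co2.

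Complex V takes 2 mRNAs, and both were among the highest of the 13. The TPM of mt-Atp8 (chrM:7766-7969), a short peripheral subunit, was 7258 and 7980 (7619 ± 511), and that of mt-Atp6 (chrM:7927-8607), a subunit of the proton channel, was 6283 and 6661 (6472 ± 267). The first place of mt-Atp8 goes with its length, since only 105 of its 204 bases count as effective length. With counts divided by full length in place of effective length (per kilobase, scaled to the gene counts of each library), mt-Atp6 led with 3246 and 3730, followed by mt-Cytb with 2365 and 2717 and mt-Atp8 with 2258 and 2691.

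**Figure D1:**
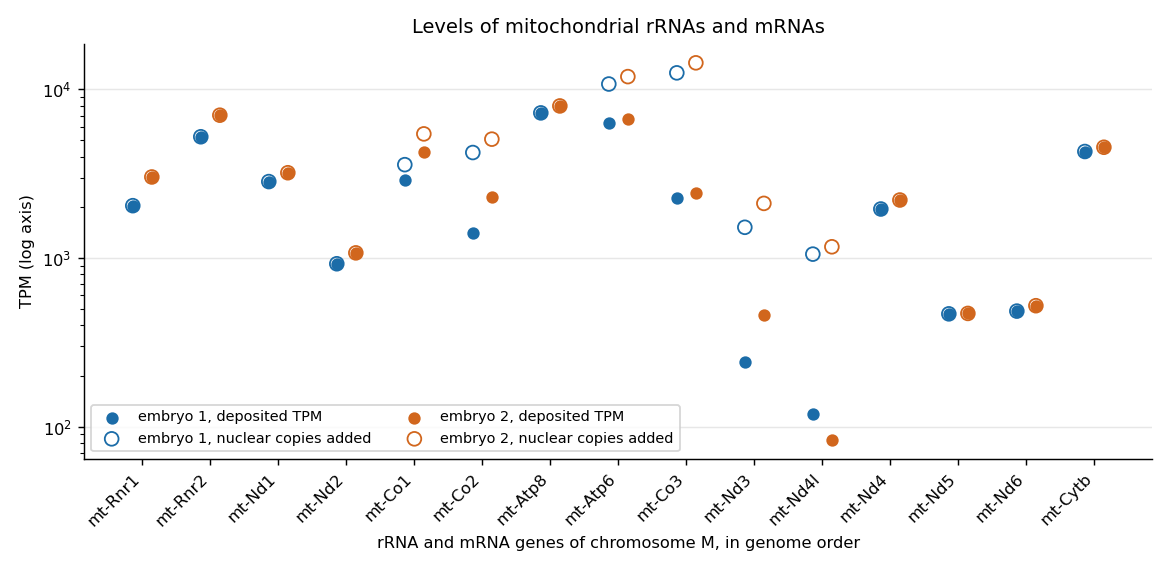
Levels of the 2 rRNAs and 13 mRNAs in genome order, on a log axis in TPM, for embryo 1 and embryo 2. Filled points are deposited values, and open circles add the reads of the nuclear copies. The open circles part from the filled points for mt-Co1, mt-Co2, mt-Atp6, mt-Co3, mt-Nd3 and mt-Nd4l, most of all for mt-Nd4l, and mt-Co3 becomes the highest mRNA.

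The levels of 6 mRNAs depended on how reads were divided with the nuclear copies. The share of 100-base windows found in an annotated nuclear transcript was 99.9% for mt-Co3 (684 of 685 windows), 99.5% for mt-Co2, 99.5% for mt-Atp6, 98.5% for mt-Nd4l and 97.6% for mt-Nd3. It was 60.8% for mt-Nd4, 30.8% for mt-Co1 and 3.19% for mt-Nd2. It was 0 for mt-Rnr1, mt-Rnr2, mt-Nd1, mt-Atp8, mt-Nd5, mt-Nd6 and mt-Cytb, whose counts were whole numbers.

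The copies received most of the reads of several pairs. Gm28437 was given 134558 reads in embryo 1 and 156674 in embryo 2, against 29950 and 31648 for mt-Co3. The mitochondrial gene thus held 18.2% and 16.8% of the reads of the pair. That share was 11.3% and 7.17% for mt-Nd4l beside Gm10222, 15.8% and 21.8% for mt-Nd3 beside Gm28438, and 33.3% and 45.4% for mt-Co2 beside Gm28661 and a second copy. It was above 50% only for mt-Atp6 beside Gm10925, at 58.4% and 55.9%, and for mt-Co1 beside Gm29216 and other copies, at 81.6% and 78.5%, among the 6 mRNAs with a copy that held at least 100 reads. In contrast, Gm28439 was given 0 reads in both embryos although it is identical to part of mt-Nd4. It is named because of that value, which was known when it was chosen.

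The authors' tables also carry the uncertainty of this division. Beside each expected count stand a posterior mean and its SD, which describe how far the estimate could move for the same reads. For mt-Co3 the posterior mean gave the mitochondrial gene 35.9% and 37.4% of the pair, and the posterior SD was 65.8% and 60.0% of the posterior mean. The authors' credibility bounds for its TPM ran from 1317 to 9548 in embryo 1 and from 1743 to 10382 in embryo 2. The posterior SD was 67.5% and 41.1% of the mean for mt-Nd4l, 37.4% and 29.1% for mt-Co2, 23.7% and 23.3% for mt-Atp6, and 18.1% and 16.5% for mt-Nd3. For mt-Co1 it was only 0.19% and 0.17%, and for mt-Nd4 it was smaller still.

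**Figure D2:**
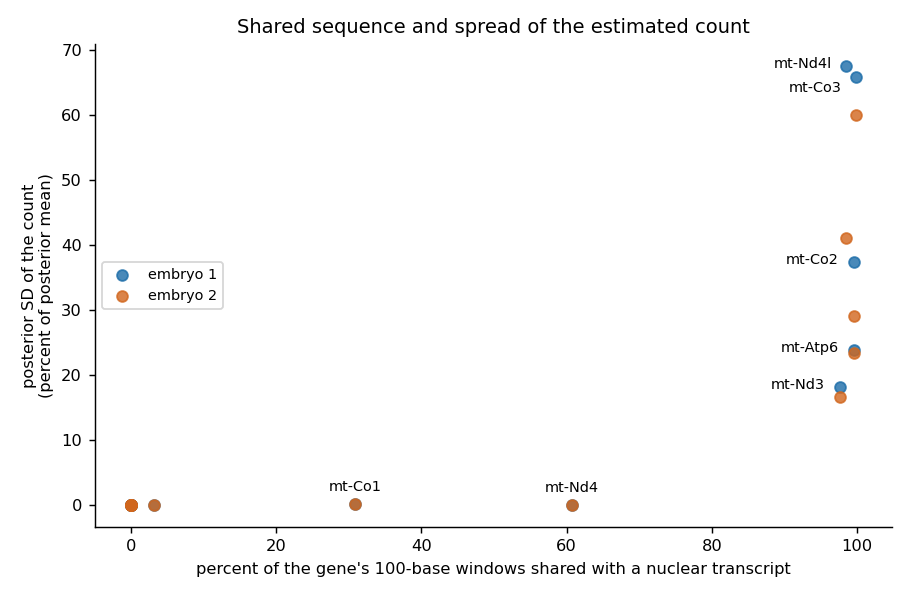
Posterior SD of the estimated count, in percent of the posterior mean, against the percent of a gene's 100-base windows that an annotated nuclear transcript also holds, for 15 rRNA and mRNA genes in each embryo. The 5 genes with 97.6% to 99.9% of windows shared have SDs of 16.5% to 67.5%, and mt-Co1 and mt-Nd4, with 30.8% and 60.8% shared, lie near 0.

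The sum of a gene and its copies did not move with the division. It was a whole number, within 0.05 reads, for all 15 genes in both embryos (30 of 30 sums), and expected and posterior sums differed by at most 0.01 reads. For mt-Co3 and Gm28437 the sum was 164508 reads in embryo 1 and 188322 in embryo 2. These sums say how many reads fit either place, and where the RNA was made cannot be told apart from them for bases that are identical.

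**Figure D3:**
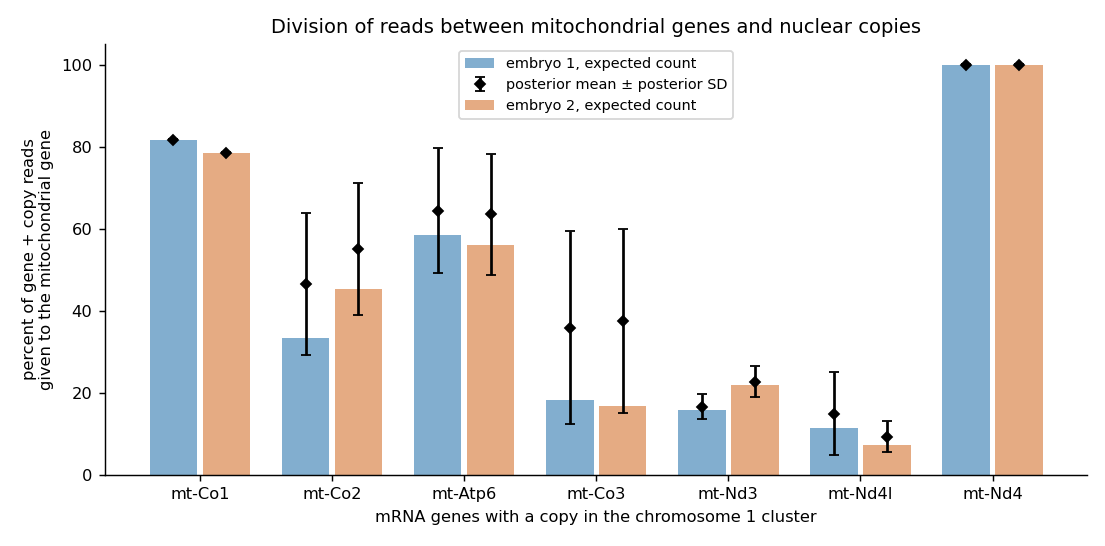
Percent of the reads of a mitochondrial gene and its nuclear copies that was given to the mitochondrial gene, for the 7 mRNAs with a copy in the chromosome 1 cluster. Bars are expected counts and diamonds are posterior means with the posterior SD. The diamonds of mt-Co3 lie at 35.9% and 37.4%, above bars at 18.2% and 16.8%, and mt-Nd4 keeps all its reads.

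With the copies' reads added to each gene and divided by the gene's own effective length, the order of the mRNAs changed. The level of mt-Co3 became 12539 and 14378 TPM (13459 ± 1301), the highest of the 13 mRNAs in both embryos, from the sixth place by the mean of deposited TPM. The level of mt-Atp6 became 10765 and 11912 (11338 ± 811), that of mt-Co2 4224 and 5071 (4647 ± 599) and that of mt-Co1 3579 and 5449 (4514 ± 1322). The level of mt-Nd3 became 1522 and 2109 (1815 ± 415) and that of mt-Nd4l 1055 and 1166 (1110 ± 78.8). The lowest mRNA was then mt-Nd5 in place of mt-Nd4l, and the ratio of the highest to the lowest mRNA went from 60.8 to 26.9 in embryo 1 and from 95.5 to 30.6 in embryo 2.

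Frames that share an mRNA also stood closer or further apart. The ratio of mt-Nd4 to mt-Nd4l in TPM was 16.4 and 26.4 as deposited, and 1.85 and 1.89 with the copies added. The ratio of mt-Atp8 to mt-Atp6 was 1.16 and 1.20 as deposited, and 0.674 and 0.670 with the copies added. Complex I took 30.8% and 29.3% of mRNA reads as deposited and 21.1% and 20.1% with the copies, and complex IV went from 29.5% and 34.8% to 46.2% and 49.8%. Complex V took 19.7% and 17.9% as deposited and 20.0% and 18.7% with the copies.

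Both rRNAs and nearly all mRNAs were higher in embryo 2 relative to other genes. Ratios of embryo 2 to embryo 1 were taken from expected counts scaled with the TMM method, and their 95% intervals are exact conditional binomial intervals that cover counting error only. Mitochondrial genes in sum had a ratio of 1.37 (1.36 to 1.37), the rRNAs 1.51 (1.504 to 1.522) and the mRNAs 1.30 (1.30 to 1.31). With the copies added the whole sum had a ratio of 1.35. By gene, 14 of 15 were higher in embryo 2 and all 15 were with the copies added, while 50.6% of all genes with at least 100 summed counts were higher. The median log2 ratio of the mRNAs was 0.28, or 0.32 with the copies, beside 0.0056 over those 14011 genes. With 2 embryos in a single group no test was possible, and the differences describe this pair only.

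Size differed among the genes. The ratio was 1.64 (1.61 to 1.66) for mt-Rnr1 and 1.48 (1.47 to 1.49) for mt-Rnr2. For mt-Co1 it was 1.62 (1.61 to 1.63), and 1.68 with the copies. It lay between 1.11 for mt-Nd5 and 1.28 for mt-Nd2 in the other genes whose counts the copies barely touch, namely mt-Nd1 (1.25), mt-Nd4 (1.25), mt-Atp8 (1.22), mt-Nd6 (1.19) and mt-Cytb (1.17). The 5 mRNAs with no shared window (mt-Nd1, mt-Atp8, mt-Nd5, mt-Nd6, mt-Cytb) had a ratio of 1.19 (1.18 to 1.20) in sum. Windows were compared with annotated nuclear transcripts only. Of the 5, mt-Atp8 lies between mt-Co2 and mt-Atp6, whose copies are neighbours in the cluster, and sequence between annotated copies was not searched.

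A ratio of at least 2-fold was seen for 1 gene of 15, mt-Nd3, while 4.79% of all genes with at least 100 summed counts passed it in either direction and 1.43% with the higher value in embryo 2. Its counts were 1148 in embryo 1 and 2191 in embryo 2, a ratio of 2.11 (1.97 to 2.27), which became 1.53 with Gm28438 added. Only mt-Nd4l was lower in embryo 2, with 453 and 316 reads and a ratio of 0.774 (0.667 to 0.894), and with Gm10222 added the ratio was 1.22. Likewise mt-Co2 went from 1.81 to 1.33. The intervals of mt-Nd3 and mt-Nd4l leave out the uncertainty of dividing reads with the copies. The posterior SD of the count was 18.1% and 16.5% of the posterior mean for mt-Nd3, and 67.5% and 41.1% for mt-Nd4l. The 3 genes furthest from the mRNA median log2 ratio of 0.28, mt-Nd3, mt-Co2 and mt-Nd4l, were all genes whose reads were divided with a nuclear copy. Reads of mt-Co3 and mt-Atp6 were divided as well, and both had a log2 ratio of 0.23, near that median. From the median of all genes, 0.0056, mt-Rnr1 at 0.71 lay further than mt-Nd4l at -0.37. With copies added 3 genes were past 1.5-fold (mt-Rnr1, mt-Co1, mt-Nd3), while 5.66% of all genes were that much higher in embryo 2.

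**Figure D4:**
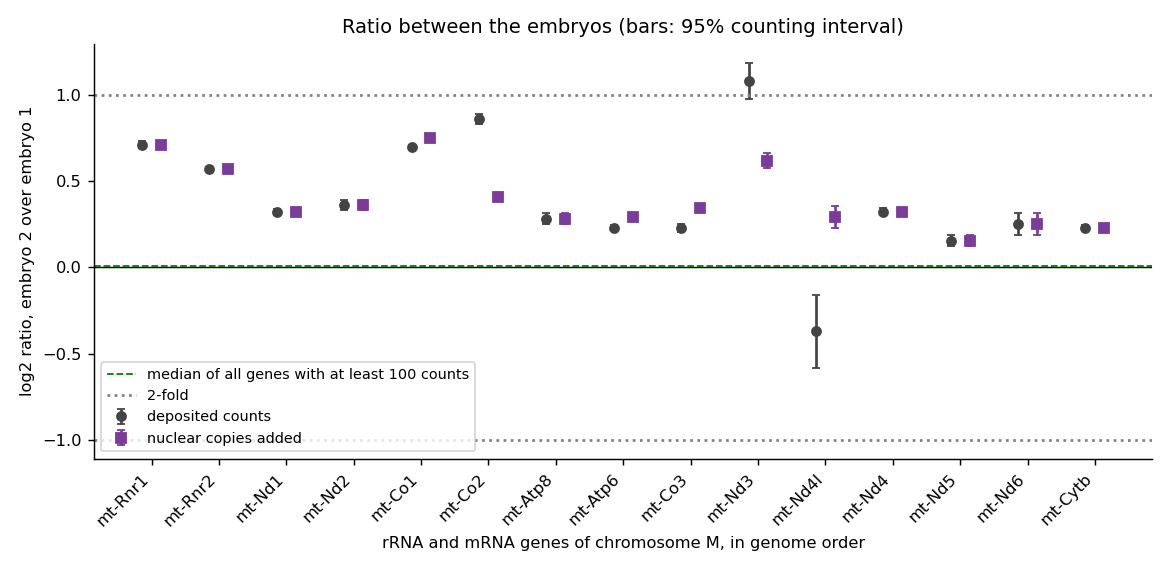
Ratio of embryo 2 to embryo 1, as log2 with 95% counting intervals, for 15 rRNA and mRNA genes in genome order, from deposited counts (circles) and with nuclear copies added (squares). The dashed line is the median of all genes at 0.0056. Circles of mt-Nd3 and mt-Nd4l stand furthest apart, at 1.08 and -0.37, and their squares at 0.62 and 0.29.

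The ratios with copies added were higher near the start of the gene order, with a Spearman rho of -0.70 between position and log2 ratio over 15 genes that share both libraries. The rho was -0.03 with GC content and 0.13 with length. These are descriptions of a pair of libraries. The rRNAs lie at the start of the order, but mt-Nd1 directly after them had a ratio of 1.25.

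The non-neural markers moved the other way between the embryos. All 6 mesenchyme, 8 erythroid, 6 microglial and 5 endothelial markers were lower in embryo 2, as were the 5 cell cycle markers, whose summed TPM was 300 and 186. Their part in the mitochondrial ratios was not tested, and in bulk tissue fewer cells of a type and less RNA per cell cannot be told apart. Another scaling moved the level of all genes: with spike-in totals the median log2 ratio of all genes was -0.11 and with ratios of deposited TPM -0.13. A change of scaling factor shifts every gene alike, so the distance of the mRNA median from the median of all genes, 0.28, cannot move with it. That distance was 0.27 with ratios of deposited TPM and 0.31 with posterior mean counts, which are other estimates. In each of the 7 scalings and estimates, 12 of 13 mRNAs had a higher value in embryo 2. The share of all compared genes that did ran from 34.6% with ratios of deposited TPM to 50.7% with posterior mean counts. Some of the 12 were close to no change: with ratios of deposited TPM the log2 ratio was 0.0085 for mt-Nd5 and 0.084 for mt-Cytb.

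Nuclear subunits of the same complexes were also higher in embryo 2. Of 71 nuclear genes of complexes I, III, IV and V, 67 were higher and none was past 2-fold, with a median log2 ratio of 0.36. Of all genes with at least 100 summed counts, 50.6% were higher in embryo 2 and 4.79% were past 2-fold.

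Nuclear genes that copy, transcribe, process and translate the mitochondrial genome showed no common direction. Of 19 genes of mitochondrial DNA maintenance and transcription, 11 were higher in embryo 2 and 8 lower, with a median log2 ratio of 0.03 and a median TPM of 19.8. The highest were Ssbp1, the single-stranded DNA-binding protein of mitochondria, at 83.3 ± 2.27 TPM, Mterf3, of the mitochondrial termination factor family, at 53.8 ± 3.31, and Dguok, a deoxyguanosine kinase, at 52.2 ± 0.191. None of the 19 was past 2-fold. Over all genes with at least 100 summed counts, 4.79% were past 2-fold and 50.6% were higher in embryo 2.

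Genes of mitochondrial RNA processing and stability numbered 22, of which 7 were higher in embryo 2 and 15 lower, with a median log2 ratio of -0.04 and a median TPM of 32.4. Slirp, a partner of Lrpprc in stabilising mitochondrial mRNAs, was highest at 192 ± 12.6 TPM, with a ratio of 1.25 (1.16 to 1.35). Lrpprc itself was lower in embryo 2, with 35.0 ± 9.19 TPM and a ratio of 0.737 (0.698 to 0.778). Hsd17b10, a subunit of mitochondrial RNase P, had 86.3 ± 4.46 TPM and a ratio of 1.03, and Fastk, the founder of a family of mitochondrial RNA-binding proteins, had 78.5 ± 5.62 TPM and a ratio of 1.29. None of the 22 was past 2-fold, beside 4.79% of all genes with at least 100 summed counts.

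Of 11 genes of mitochondrial translation, 6 were higher and 5 lower, with a median log2 ratio of 0.10. Tufm, the elongation factor that brings charged tRNAs to the ribosome, had 98.6 ± 5.40 TPM, its exchange factor Tsfm 48.4 ± 3.61 and the initiation factor Mtif2 30.0 ± 3.66. None of the 11 was past 2-fold, beside 4.79% of all genes with at least 100 summed counts.

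**Figure D5:**
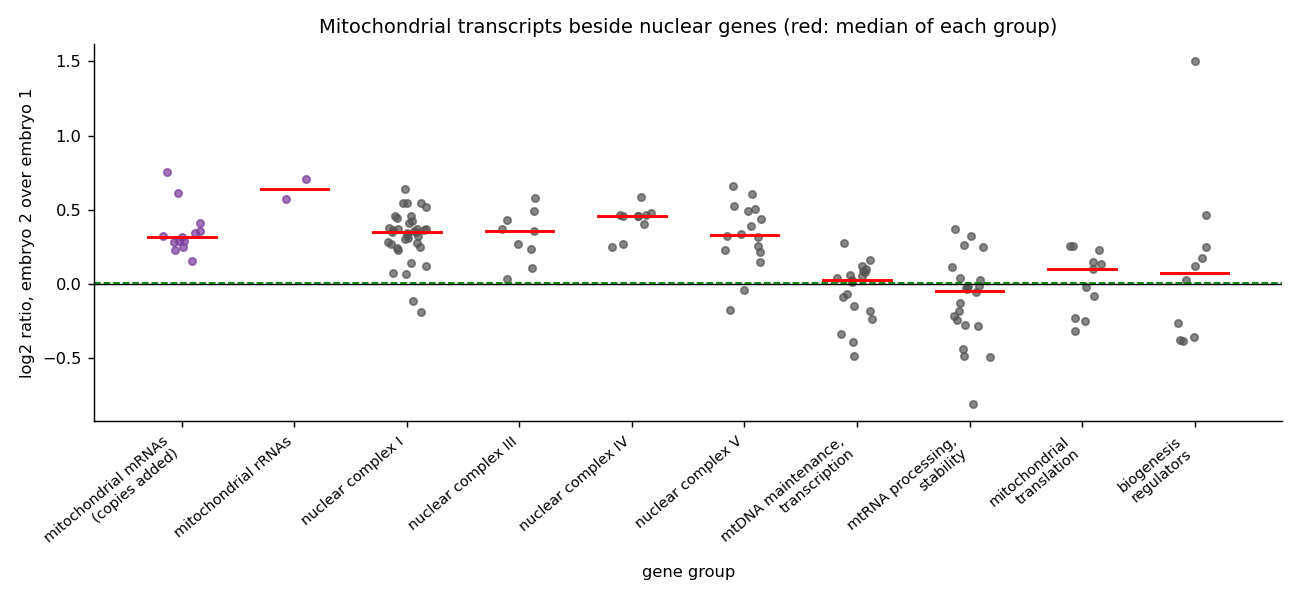
Log2 ratio of embryo 2 to embryo 1 for each gene of 10 groups, with the median of a group in red and the median of all genes dashed. The mitochondrial mRNAs (median 0.32 with copies added) and the nuclear subunits of the 4 complexes (medians 0.33 to 0.46) lie above 0, and the groups that copy, process and translate the mitochondrial genome straddle 0.

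The last list held 10 regulators of mitochondrial biogenesis, of which 6 were higher in embryo 2 and 4 lower, with a median log2 ratio of 0.07. The highest were Gabpb1, a subunit of nuclear respiratory factor 2, at 42.5 ± 10.1 TPM, Nrf1, the nuclear respiratory factor, at 29.7 ± 6.63, and the estrogen-related receptor Esrrg at 26.7 ± 1.53. The related receptor Esrra was past 2-fold, with 146 counts in embryo 1 and 374 in embryo 2 and a ratio of 2.84 (2.34 to 3.46). It was the only 1 of the 10 past 2-fold, beside 4.79% of all genes with at least 100 summed counts.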

How the data were processed

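Total RNA libraries of 2 embryonic midbrains were read from the gene tables the authors deposited. A text record deposited beside each table names mm10 and GENCODE M4. No aligner, quantifier or strand setting is named (not given in the sources used here). The deposited expected counts are estimates of reads per gene, fractional where a read was split among genes. The authors computed the TPM values (per the file headers) over all rows of a file. The deposited FPKM values were not used. Scores deposited beside them are the posterior SD of the count and the credibility bounds of the posterior TPM. Columns of length and effective length were deposited in bases.

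Symbols, coordinates and sequences came from GENCODE M21 on GRCm38, the same assembly, and all 37 lengths matched. Spike-ins, the phiX row and 26248 rows with only a numeric identifier (6 and 14 counts) stayed out of totals. Levels are given as deposited TPM, mean and SD over 2 embryos. Ratios used unrounded expected counts scaled by TMM (edgeR 4.0.16), with 0.5 added to each count before log2. A ratio of 2-fold at 100 or more summed counts was called, with no p-value. Intervals (95%) cover counting error alone, with each read taken as a separate molecule. The reads carry no molecular identifiers and may repeat a molecule, which the intervals do not take into account. The intervals also leave out the uncertainty of dividing reads between a gene and its nuclear copies. Nuclear copies were annotated genes sharing an exact run of 50 bases with a chromosome M gene, where the tables list them, and 100-base windows stood for reads. The nuclear genome outside annotated transcripts was not searched. Code was tested on simulated data.

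All mRNAs and rRNAs of chromosome M are named, with copies of at least 100 reads, and of each list of nuclear regulators the 3 highest by mean TPM and any past 2-fold. Lrpprc is given as well, as the partner of Slirp. The members and lists were chosen with earlier results of these data known. Alternatives were DESeq2 1.42.0 size factors, total counts, spike-in totals, TPM ratios, posterior means, other thresholds, and copies added.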

Additional observations from a re-analysis of the deposited data

How the results depend on the processing

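The summed log2 ratio of mitochondrial genes, 0.45, was 0.43 with DESeq2 size factors, 0.42 with total gene counts, 0.34 with spike-in totals, 0.26 with ratios of deposited TPM, 0.43 with mitochondrial genes and copies left out of the total and 0.44 with copies added. The median of the mRNAs, 0.28, was 0.26, 0.25, 0.17, 0.14 and 0.27 under the first 5 of these, 0.32 with posterior mean counts and 0.32 with copies added. The count of genes past 2-fold, 1, was 0 with spike-in totals, 0 with TPM ratios and 0 with copies added. At 1.5-fold it was 4, and 3 with copies added, while 14.2% of all genes with at least 100 summed counts were past 1.5-fold in either direction. The share of gene counts, 2.26%, was 3.14% with copies added, 4.25% of deposited TPM and 1.54% for mRNAs only. The median level of the mRNAs, 2127 TPM, was 3023 with copies added and 1219.5 in scaled counts per kilobase of full length. The complex I share, 30.1%, was 22.2% of deposited TPM, 27.3% with posterior means and 20.6% with copies added.

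Over 15 genes, adding copies turned the direction of 1, mt-Nd4l, from -0.37 to 0.29, and no other setting turned any. Adding copies to single genes was chosen after seeing the data. Leaving out either embryo gave a share of 1.93% to 2.58%, and ratios could not be computed without both. No paired analysis was possible because there is 1 group. Depth was not varied, so what it limits was not tested.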
